A study of Mus musculus with 72 samples.

Results

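The genes described here are 34 genes of red blood cell development other than the globins: proteins of the red cell membrane, blood group antigens, the transcription factors of the erythroid lineage, the receptors for erythropoietin and transferrin, the enzymes of haem synthesis, and genes of late red cell maturation. They were taken from a list of symbols and matched through the GENCODE M21 names of their Ensembl identifiers. Of the 34 listed genes, 33 were found among the 36047 mouse genes of each table. The remaining one, Ahsp, was not analysed here.

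Red cells form from committed precursors that answer to erythropoietin, divide a few times, fill with haemoglobin, condense their nucleus and finally expel it. Gata1, Tal1, Klf1 and Nfe2 switch on the programme, and transferrin receptors bring in iron. A chain of enzymes builds the haem ring, into which iron is inserted last. The membrane skeleton and its anion exchanger are laid down as the cell matures. In mice the spleen makes red cells throughout life in its red pulp, alongside the bone marrow, and red pulp macrophages there engulf old red cells and recycle their iron.

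The samples came from EGFR DEL19 transgenic mice given doxycycline for 25 days, which develop lung tumours that were checked by micro-CT. All 3 groups carried the transgene and received doxycycline and a circuit, so that no untreated animals are part of the comparison. Mice were injected intravenously at 10 mg/kg, 7 times at intervals of 2 days, with one of 3 genetic circuits, CMV-scrR (the control here), CMV-siRE or CMV-GE11-siRE, and tissues carry the label day 14. The study delivers siRNA against EGFR in small extracellular vesicles, and GE11 is a peptide that binds the EGFR protein. RNA sequencing covered spleen, liver, lung, kidney, thymus and lung tumour, with 4 libraries for each circuit in each tissue and 72 in all. The labels do not give the promoter or the cells that express the transgene, nor the animal behind each library, and each p-value here reflects the variation among these libraries only, which may be technical.

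From the DESeq2 entry of the submitters' processing notes, the deposited values are taken to be gene counts divided by size factors. Their low values fell only partly on even steps, which leaves this unsettled. They are called normalised values here, and their read depth is unknown. Column totals ran from 16.9 M to 21.4 M in the 5 organs and from 5.87 M to 43.8 M in tumour (M, mega-units of normalised value). All 4 marker genes of the liver, of the kidney, of the spleen and of the thymus were higher, as CPM (the value scaled to a common column total), in every library of their own tissue than in any library of another. The 4 lung markers were so apart from tumour, and 2 of the 4 tumour markers apart from lung. Mouse Egfr, the gene named by the study's aim, was low in spleen, at 63.6 to 229 normalised units in CMV-scrR, 57.6 to 98.8 in CMV-siRE and 86.5 to 133 in CMV-GE11-siRE libraries. The human EGFR transcript, read from the tumour table, lay at 1992 to 4025 in CMV-scrR, 452 to 1324 in CMV-siRE and 39.2 to 132 in CMV-GE11-siRE tumours. Kidney CMV-GE11-siRE replicate 4 and thymus CMV-GE11-siRE replicate 4 stood apart, with median correlations to the other libraries of their tissue of 0.903 and 0.896 against 0.956 to 0.978 for the other 58 organ libraries.

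The spleen held most of the expression of these genes. In CPM, 31 of the 33 members had their highest mean level over the 6 tissues in control spleen, and for 30 of these the spleen libraries did not overlap those of the next tissue. Xpo7 was the exception, with spleen libraries overlapping thymus, the next tissue. The other two were Tfr2, at 547 ± 27.3 CPM (SD, n = 4) in liver against 51.1 ± 12.6 in spleen, and Tmcc2, at 425 ± 115 in lung against 391 ± 175 in spleen, whose libraries overlapped. The tables were scaled separately, so these levels across tissues are a description. Several members also had a home outside red cells: Slc4a1, which the kidney uses in acid secretion, stood at 108 ± 7.87 CPM there, and Car2, a carbonic anhydrase, at 512 ± 23.9 in kidney. In control libraries 19 of 33 members were under 1 CPM in tumour, 11 in lung and in thymus, 12 in kidney, 13 in liver and 0 in spleen. Mitochondrially encoded genes took 63.1% to 71.4% of the column total in control tumours, which lowers the CPM of all other genes there. In control kidney, the highest organ, they took 11.7% to 12.6%.

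**Figure D1:**
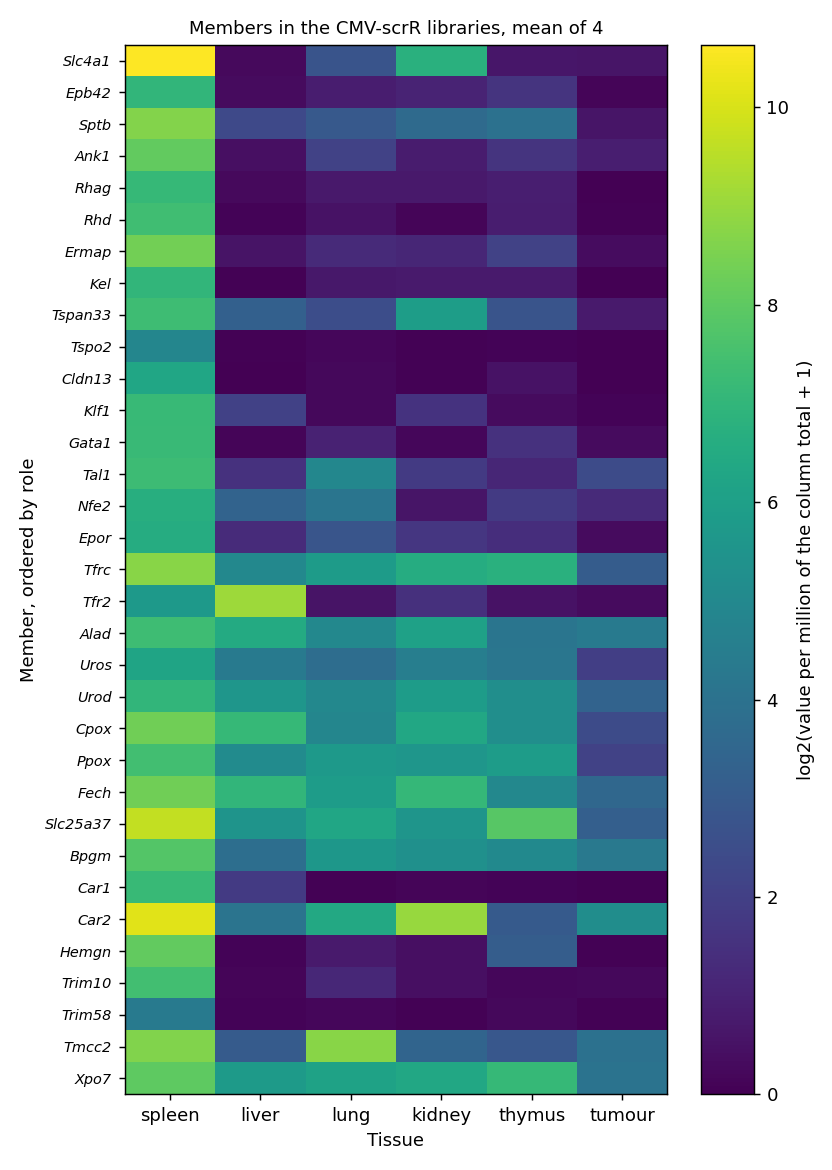
Mean level of each member in the 4 CMV-scrR libraries of each tissue, as log2(CPM + 1), with members as rows in order of role and tissues as columns. The spleen column is the brightest for nearly all rows, with Tfr2 brighter in liver (547 CPM) and Tmcc2 similar in lung and spleen (425 and 391).

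Divided by exon length, the control spleen levels of the members spanned Car2, at 9391 ± 2173 normalised units per kb of exon (SD, n = 4), down to Tspo2, at 178 ± 37.2 per kb. The libraries of Car2 (7566 to 12168 per kb) overlapped those of Slc4a1, the next highest (3338 to 10558 per kb). Slc25a37 followed at 2649 ± 961 per kb, then Car1 at 2263 ± 562 and Hemgn at 2160 ± 773 per kb, 3 neighbours whose ranges overlapped. At the low end Trim58, at 182 ± 96.2 per kb, and Tfr2, at 236 ± 58.4 per kb, overlapped Tspo2.

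In the spleens of mice given CMV-siRE, some of the erythroid genes fell relative to the control spleens. Of the 33 members, all tested, 10 fell at a limma adjusted p under 0.05 and 0 rose: Tmcc2, Bpgm, Trim10, Trim58, Slc4a1, Xpo7, Tspo2, Fech, Nfe2 and Slc25a37. Of all 16015 genes tested, 4.61% were called in this comparison, 2.88% as lower. The log2 difference lay below 0 for 32 of 33 members, with a median of -0.92 against 0.004 over all genes, and only Car1 lay above 0. For 21 of 33 members all 4 CMV-siRE libraries were below all 4 control libraries, which held for 7.06% of all genes. In bulk tissue, fewer cells of a type and less RNA per cell cannot be told apart. Leaving out CMV-siRE replicate 3 gave 6 calls, and leaving out CMV-GE11-siRE replicate 4, which enters the shared estimate of the spread, gave 20. A fit of just the 8 compared libraries gave 16. None of these was higher.

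**Figure D2:**
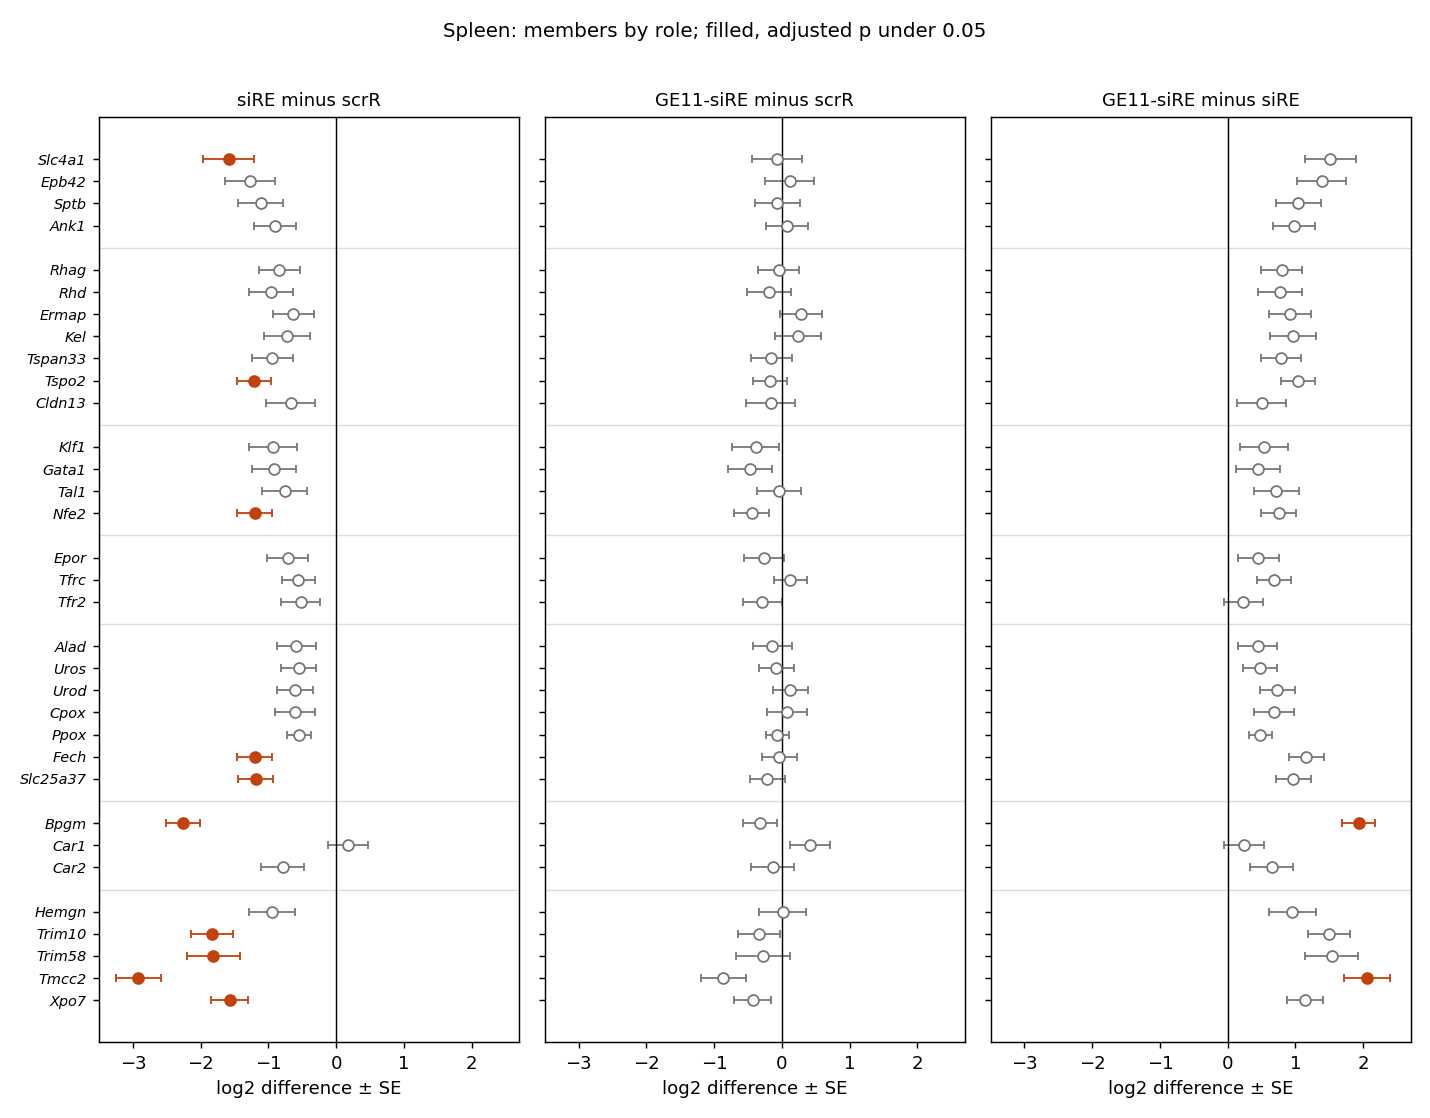
Log2 difference ± SE (horizontal axis) of each member in spleen, grouped by role from top to bottom, for CMV-siRE minus CMV-scrR, CMV-GE11-siRE minus CMV-scrR and CMV-GE11-siRE minus CMV-siRE; filled points have an adjusted p under 0.05. In the left panel 32 of 33 points lie left of 0 and 10 are filled, in the middle panel none is filled, and in the right panel all lie right of 0 and 2 are filled.

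Of the 5 genes grouped as maturation and other, 4 fell. Differences between the role groups were not tested. Tmcc2, a coiled-coil membrane protein, measured 4126, 12382, 8628 and 6137 in the control spleens. In the CMV-siRE spleens it measured 1522, 934, 746 and 767. No CMV-siRE library reached the lowest control, and the log2 difference was -2.92 ± 0.33 (SE, adjusted p = 0.000405). Exons of Tmcc2, and of Ank1, Cpox, Ppox, Slc25a37, Sptb and Xpo7 among the members, overlap those of other annotated genes. The overlap was 53 of 5692 exon bases in Tmcc2, 39 of 19005 in Xpo7 and 1 of 12147 in Sptb. It was 204 of 6661 in Cpox, 473 of 6021 in Slc25a37, 862 of 13527 in Ank1 and 791 of 4515 in Ppox. As the strand setting of the counting is unknown, reads from those stretches could be shared. On GRCm38, Tmcc2 lies at chr1:132356315-132391281, Trim10 at chr17:36869574-36877833, Bpgm at chr6:34476207-34505613 and Slc4a1 at chr11:102348824-102366203. Trim10, a RING finger protein needed for terminal red cell differentiation, stood at 1958, 5236, 3571 and 2716 in control libraries. Its CMV-siRE values were 1336, 975, 628 and 739.8, again with no overlap, for a difference of -1.84 ± 0.31 (adjusted p = 0.00484). Trim58, a ubiquitin ligase that helps the red cell precursor expel its nucleus, was far less abundant, at 153, 652, 460.2 and 329 in control libraries and 158, 98.8, 114 and 54.1 under CMV-siRE. It fell by 1.81 ± 0.40 on the log2 scale (adjusted p = 0.0199), although control replicate 1, at 153, lay just below the highest CMV-siRE library. Xpo7, an exportin that acts in nuclear condensation of red cell precursors, gave 2783, 7887, 5239.6 and 4571 in control spleens and 1976, 1486, 1643 and 1388 under CMV-siRE. These groups did not overlap and differed by -1.57 (SE 0.27, adjusted p = 0.00537). Hemgn, a nuclear protein of red cell precursors and a target of Gata1, did not pass, at 3466 to 7959.7 in control and 1924 to 3538 in CMV-siRE libraries (log2 difference -0.94 ± 0.34, adjusted p = 0.137). Tmcc2, Trim10 and Xpo7 passed with any 1 of the 12 libraries left out. Trim58 lost its call without CMV-scrR replicate 3 (adjusted p = 0.0572) or CMV-siRE replicate 4 (adjusted p = 0.0528), over a range of 0.00367 to 0.0572 among the 12 left-out fits.

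**Figure D3:**
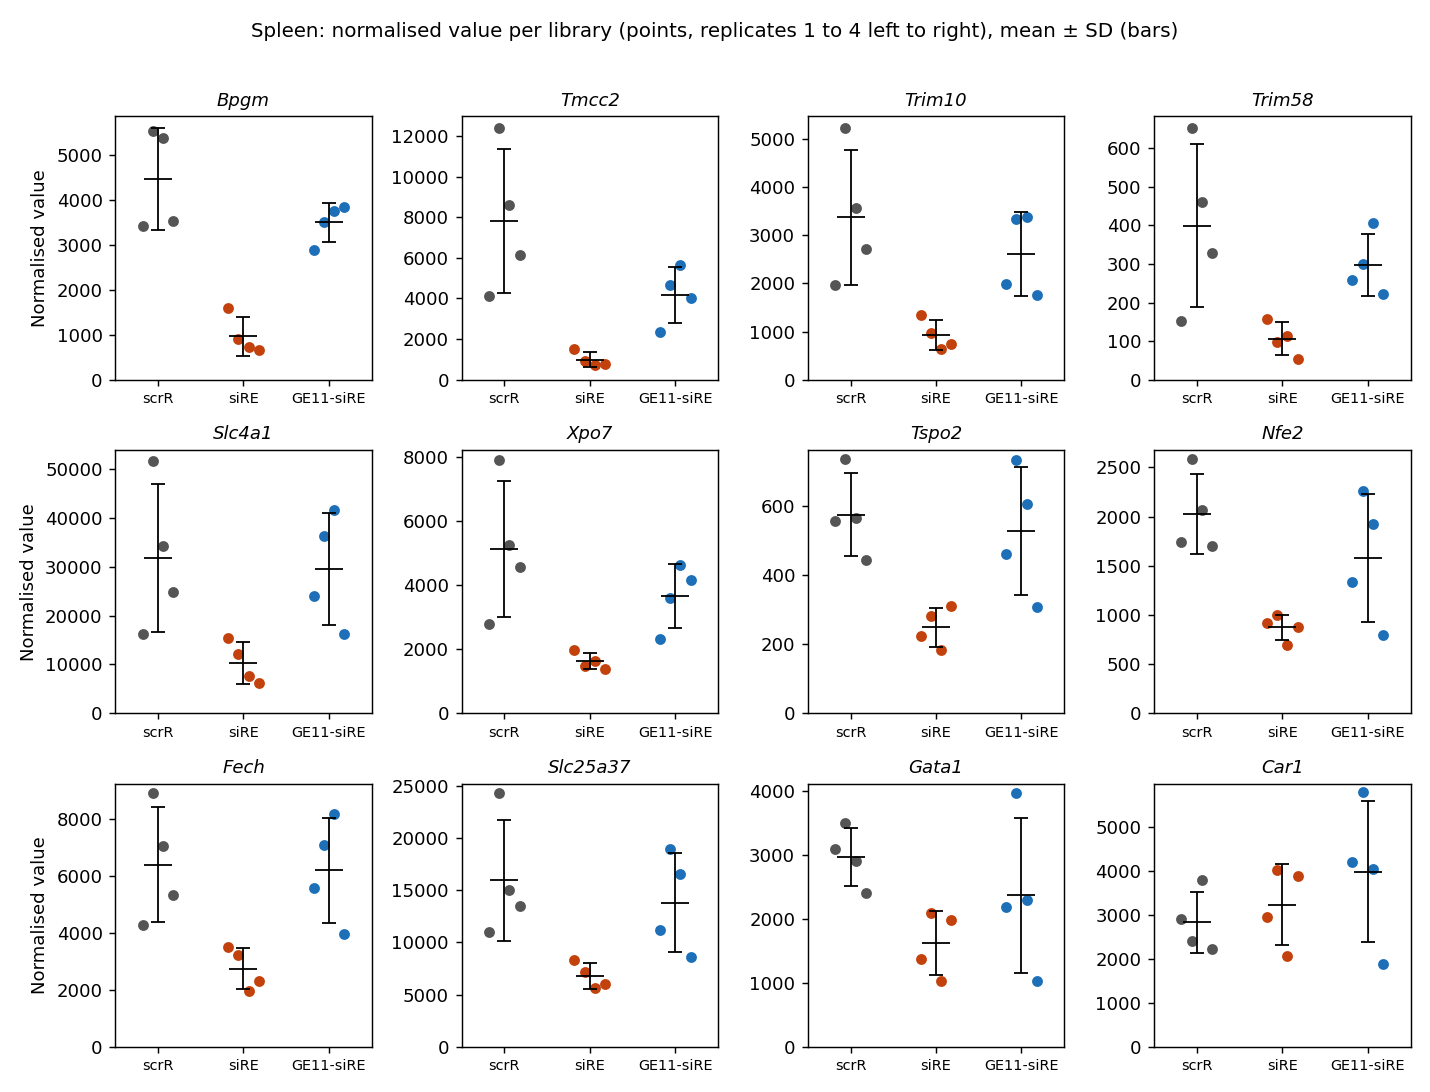
Normalised value (vertical axis, from 0) in each spleen library for the 10 members that fell under CMV-siRE and for Gata1 and Car1, which did not pass; points are libraries, replicates 1 to 4 from left to right within a circuit, and bars are mean ± SD. CMV-siRE libraries lie below all control libraries for each called gene except Trim58, where 153 in the control overlaps 158 under CMV-siRE, and the circuits overlap for Car1.

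Of the red cell metabolism genes, Bpgm alone passed. Bpgm makes the bisphosphoglycerate that lowers the oxygen affinity of haemoglobin. Control spleens gave 3408, 5522, 5358 and 3533 and CMV-siRE spleens 1599, 898, 719 and 651. The 4 CMV-siRE libraries all lay far under the lowest control, and the log2 difference of -2.26 ± 0.24 had an adjusted p of 0.000322, passing with any 1 library left out. Car2, the abundant carbonic anhydrase of red cells, measured 18325, 29472, 24387 and 18796 in control and 12938, 16595, 8278 and 15618 in CMV-siRE libraries. These did not overlap either, but the difference of -0.79 ± 0.32 did not pass (adjusted p = 0.178). Car1, a carbonic anhydrase expressed earlier in red cell development, went the other way, with 2908, 2397, 3779 and 2212 in control and 2946, 4019, 2059 and 3884 in CMV-siRE libraries, which overlapped (log2 difference 0.18 ± 0.30, adjusted p = 0.786). Within a library the ratio of Bpgm to Car1 was 1.17 to 2.30 in control spleens and 0.168 to 0.543 in CMV-siRE spleens. Of 4 ratios computed, all chosen after the values were seen, Tmcc2 to Car1 also did not overlap (1.42 to 5.17 and 0.198 to 0.516), while Fech to Alad (1.35 to 2.51 and 0.943 to 1.75) and Slc4a1 to Gata1 (5.28 to 14.7 and 3.14 to 11.2) overlapped.

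Of the 4 membrane and cytoskeleton genes, 1 fell and 3 did not pass. Slc4a1, the anion exchanger that anchors the red cell skeleton, measured 16326, 51637, 34298 and 24879.9 in control spleens and 15439.8, 12137, 7541 and 6234 under CMV-siRE. The highest CMV-siRE library was just below the lowest control, and the gene fell by 1.59 ± 0.37 on the log2 scale (adjusted p = 0.0281). It lost the call in 4 of the 12 left-out fits, without CMV-scrR replicate 2 or 3 or without CMV-siRE replicate 3 or 4, with adjusted p up to 0.0772 over those fits and down to 0.0156 in the others. Epb42, which links the skeleton to this exchanger, gave 1136, 4187, 2851 and 2051 in control and 1231, 1203, 695 and 788 in CMV-siRE libraries (log2 difference -1.27 ± 0.37, adjusted p = 0.0646). Control replicate 1 was the low library that overlapped. Beta-spectrin (Sptb) and ankyrin (Ank1), the scaffold under the membrane, had control ranges of 4979 to 12258 and 3666 to 7771 and CMV-siRE ranges of 2719 to 4622 and 2323 to 3314. Neither overlapped, and neither passed, with log2 differences of -1.11 ± 0.33 (adjusted p = 0.0758) and -0.90 ± 0.31 (adjusted p = 0.11).

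Among the blood group and surface genes, 1 of 7 fell. Tspo2, a sterol-binding membrane protein of red cell precursors, read 555, 735, 567 and 444 in control spleens. CMV-siRE spleens read 223, 281, 183 and 309, all below the lowest control. Its difference was -1.21 ± 0.25 (adjusted p = 0.0145) and passed with any 1 library left out. The Rh proteins Rhag and Rhd, which form an ammonia channel and blood group antigen of the membrane, ranged over 1947 to 3969 and 2639.8 to 4355 in control spleens and over 1065 to 1932 and 1032 to 2179 under CMV-siRE. Both pairs of ranges were separate and neither gene passed (log2 differences -0.84 ± 0.30 and -0.96 ± 0.33, adjusted p = 0.13 and 0.11). Tspan33, a tetraspanin of red cell precursors, was similar at -0.94 ± 0.30 (adjusted p = 0.0933). The differences of Kel, an endopeptidase that carries the Kell antigen, of Cldn13, a claudin of red cell precursors, and of Ermap, a blood group protein, were -0.73 ± 0.34, -0.67 ± 0.36 and -0.63 ± 0.31 (adjusted p = 0.248, 0.311 and 0.264).

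The 4 transcription factors had log2 differences of -1.20 to -0.76 and 1 call. Nfe2, which drives globin and late red cell genes, gave 1738, 2583, 2063 and 1705 in control and 920.3, 1002, 697 and 881 in CMV-siRE spleens. Those libraries were clearly separate, and Nfe2 fell by 1.20 ± 0.26 on the log2 scale (adjusted p = 0.0193), a call lost without CMV-scrR replicate 2 or CMV-siRE replicate 3 (adjusted p up to 0.0570 and down to 0.00240 over the 12 left-out fits). Gata1, the master regulator of the lineage, measured 3093, 3502, 2912 and 2404 in control and 1382, 2100.2, 1033 and 1984 in CMV-siRE spleens. No library overlapped, and the difference of -0.92 ± 0.32 did not pass (adjusted p = 0.126). Klf1, the activator of adult beta-globin, read 2263, 3812, 3272 and 2161 against 1464, 2024, 961 and 1629.9, also apart and also short of the threshold (-0.93 ± 0.35, adjusted p = 0.151). Tal1, which acts with Gata1 from the stem cell stage, overlapped because control replicate 1 was low at 1510.4, and differed by -0.76 ± 0.33 (adjusted p = 0.209).

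No receptor passed. Epor, the erythropoietin receptor, read 1563, 2527, 2091 and 1508 in control and 1185, 1499.9, 788 and 1216 in CMV-siRE spleens. The groups were separate by a narrow margin, and the log2 difference was -0.72 ± 0.30 (adjusted p = 0.19). The transferrin receptor Tfrc, which imports iron into dividing precursors, overlapped between circuits at 5956 to 10699 and 4079 to 6662 (-0.56 ± 0.25, adjusted p = 0.217). Tfr2, an iron sensor that pairs with the erythropoietin receptor, gave the weakest difference of the receptors at -0.52 ± 0.29 (adjusted p = 0.318).

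In haem synthesis the last enzyme and the iron importer of the mitochondrion fell, and the 5 enzymes before them did not pass. Fech, which inserts iron into the finished ring, measured 4282, 8898, 7036 and 5347 in control and 3492, 3222, 1975 and 2312 in CMV-siRE spleens. The groups did not overlap, and Fech fell by 1.20 ± 0.26 on the log2 scale (adjusted p = 0.0189). Slc25a37, the carrier that brings iron into mitochondria, stood at 11036, 24274, 14998 and 13484 and at 8318, 7142, 5651 and 6034. It differed by -1.19 ± 0.26 without overlap (adjusted p = 0.0195). Each of these calls was lost in 2 of 12 left-out fits, Fech without CMV-scrR replicate 3 or CMV-siRE replicate 3 (adjusted p up to 0.0556 and down to 0.00999) and Slc25a37 without CMV-siRE replicate 3 or 4 (up to 0.0571 and down to 0.0100). The enzymes from Alad, which joins the first building blocks, through Uros, Urod and Cpox to Ppox had differences of -0.59 ± 0.29, -0.55 ± 0.25, -0.61 ± 0.26, -0.61 ± 0.29 and -0.55 ± 0.17, a narrow band. Ppox, which overlaps the exons of B4galt3, came closest to the threshold among them (adjusted p = 0.0904, the others 0.207 to 0.267). Alad and Ppox libraries did not overlap between the circuits.

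The CMV-GE11-siRE spleens were not told apart from the control spleens in these genes. Of 33 members, 1, Tmcc2, had an unadjusted p under 0.05, against 3927 of all 16015 genes. In limma 0 members passed, while 5.76% of all genes were called. That share was not stable, at 1.15% (183 genes) without CMV-GE11-siRE replicate 3, 1.51% without its replicate 1, 1.59% without CMV-scrR replicate 1, 1.61% with the replicate block and 7.73% without CMV-GE11-siRE replicate 2. For 0 of 33 members were the libraries separate, against 13.7% of all genes. The median log2 difference of the members was -0.13, over a range of -0.87 to 0.42, and 24 of 33 lay below 0. Single libraries turned this direction: the median was 0.18 with 25 of 33 above 0 without CMV-GE11-siRE replicate 4, and 0.03 with 19 above 0 without CMV-scrR replicate 2, against -0.29 with 3 above 0 without CMV-GE11-siRE replicate 2. Tmcc2, at 2326, 4654, 5637 and 4027, was the lowest of them, with a log2 difference of -0.87 ± 0.33 (adjusted p = 0.129). Gata1, at 2185, 3975, 2298 and 1025, differed by -0.47 ± 0.32 (adjusted p = 0.391). Car1 lay highest, at 0.42 ± 0.30 (adjusted p = 0.412).

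Set directly against CMV-siRE, the CMV-GE11-siRE spleens had 2 members higher and 0 lower, with 0.112% of all genes called and 0.0937% called higher. All 33 differences were above 0, with a median of 0.79 against -0.004 over all genes, and for 9 of 33 members every CMV-GE11-siRE library lay above every CMV-siRE library, against 2.91% of all genes. This comparison shares the CMV-siRE libraries with the one against the control. Bpgm read 2884, 3499.9, 3756 and 3835 in CMV-GE11-siRE spleens, all above the highest CMV-siRE value of 1599. Its difference was 1.94 ± 0.24 (adjusted p = 0.00854). Tmcc2 was higher by 2.06 ± 0.33 on the log2 scale (adjusted p = 0.0263). Next came Trim58, Slc4a1 and Trim10, at 1.54 ± 0.40, 1.52 ± 0.37 and 1.502 ± 0.31, none of which passed (adjusted p = 0.218, 0.211 and 0.105). The call of Bpgm was lost without CMV-GE11-siRE replicate 3 (adjusted p = 0.0510, 0.000210 to 0.0510 over 12 left-out fits), and that of Tmcc2 without any of replicates 2, 3 and 4 of either circuit (adjusted p 0.0136 to 0.133). Over those 12 fits 0 to 3 members were called, and with the replicate number as a block 1 was called, Bpgm.

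The libraries within a circuit also differed. The mean log2(value + 1) over the 33 members was 11.31, 12.28, 11.95 and 11.54 in control replicates 1 to 4, 10.94, 11.03, 10.34 and 10.66 in CMV-siRE and 11.56, 12.14, 11.998 and 10.87 in CMV-GE11-siRE replicates. CMV-GE11-siRE replicate 4, at 10.87, lay within the CMV-siRE range, unlike the other 3 of its group. That library was the lowest of its group for Gata1, Klf1 and Epor, but at 3835 it was the highest for Bpgm. Control replicate 1, at 11.31, was the lowest control on average and was low for Slc4a1 and Trim58, but not for Gata1, where it read 3093.5. Without CMV-GE11-siRE replicate 4 the count against the control stayed at 0, and the count against CMV-siRE became 3.

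**Figure D4:**
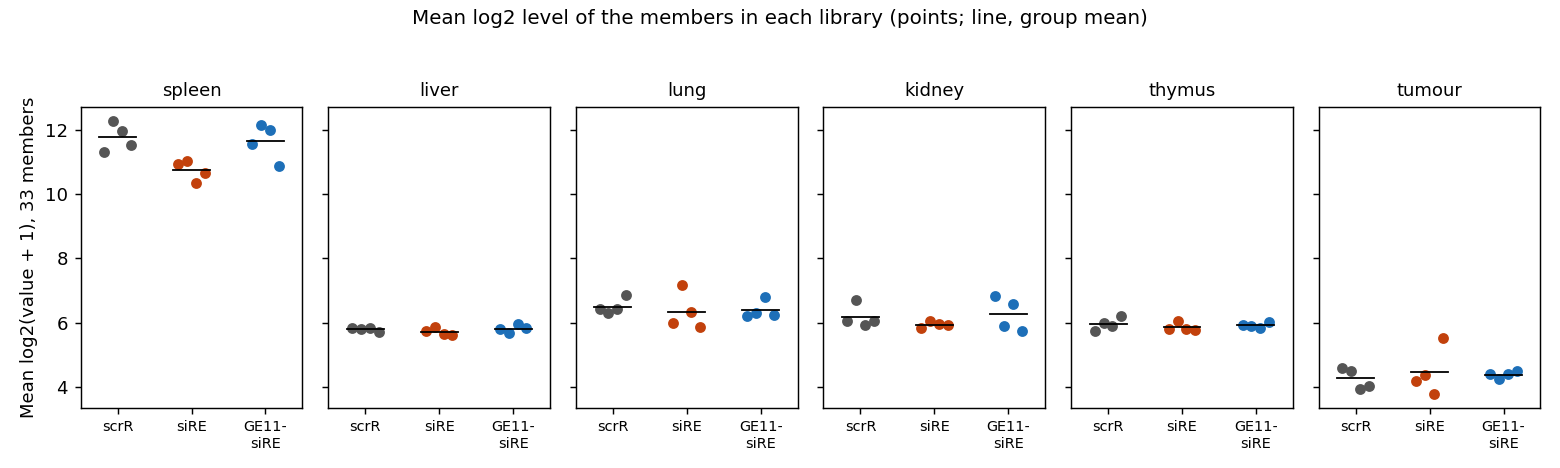
Mean log2(value + 1) over the 33 members in each library (points) with the group mean (line), by circuit and tissue. All 4 CMV-siRE spleens (10.34 to 11.03) lie below all 4 control spleens (11.31 to 12.28), CMV-GE11-siRE spleens spread from 10.87 to 12.14, and the circuits overlap in the other 5 tissues.

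The promoters of the members are shown because the GATA factors, Klf1 and Nfe2 are known to bind red cell promoters. RefSeq start sites (GRCm38.p6) matched 24 of the 34 listed genes, with 32 windows of 250 bases before a start. The GATA words AGATAA and TGATAA, on either strand, were present in 14 of 32 member windows (43.8%), belonging to 14 genes, and in 16.6% of all 32851 windows. The KLF word CCNCNCCC, which includes CCACACCC, was present in 56.2% of member windows and 45.9% of all. TGAGTCA or its reverse complement, read by Nfe2, was in 6.2% against 4.5%, and the E-box CAGNTG in 34.4% against 44.8%. These matches are letters and not measured binding. The 6 windows with a GATA word and no annotated untranslated exon are printed below from 212 bases before the start, in the direction of the gene, with GATA, KLF and NFE2 words in capitals.
Tmcc2: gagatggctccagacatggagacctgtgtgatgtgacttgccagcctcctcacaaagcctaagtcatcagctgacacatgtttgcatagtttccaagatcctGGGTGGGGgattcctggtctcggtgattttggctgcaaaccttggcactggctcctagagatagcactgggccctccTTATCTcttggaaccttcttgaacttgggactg
Trim10: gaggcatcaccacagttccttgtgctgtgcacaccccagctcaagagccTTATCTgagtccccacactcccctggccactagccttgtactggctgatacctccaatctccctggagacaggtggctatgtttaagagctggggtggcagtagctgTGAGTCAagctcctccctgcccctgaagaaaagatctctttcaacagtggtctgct
Epor: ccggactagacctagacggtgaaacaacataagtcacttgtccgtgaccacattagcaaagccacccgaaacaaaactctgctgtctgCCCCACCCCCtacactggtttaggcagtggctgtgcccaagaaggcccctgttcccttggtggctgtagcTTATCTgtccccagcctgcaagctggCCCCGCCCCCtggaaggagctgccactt
Cpox: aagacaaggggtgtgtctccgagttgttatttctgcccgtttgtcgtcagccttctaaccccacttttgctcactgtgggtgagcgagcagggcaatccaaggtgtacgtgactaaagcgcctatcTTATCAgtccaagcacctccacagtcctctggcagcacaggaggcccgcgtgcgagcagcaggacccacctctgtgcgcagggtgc
Tal1: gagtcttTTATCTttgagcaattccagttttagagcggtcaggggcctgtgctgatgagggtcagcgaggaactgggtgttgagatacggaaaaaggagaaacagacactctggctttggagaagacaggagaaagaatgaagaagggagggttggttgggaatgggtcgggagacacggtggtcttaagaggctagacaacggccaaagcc
Rhd: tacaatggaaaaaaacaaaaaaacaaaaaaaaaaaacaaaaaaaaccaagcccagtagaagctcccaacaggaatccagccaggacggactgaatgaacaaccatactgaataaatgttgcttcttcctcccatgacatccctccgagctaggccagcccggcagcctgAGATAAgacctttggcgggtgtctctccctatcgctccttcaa
The windows lie at chr1:132367949-132368160 (minus strand) for an internal start of Tmcc2, chr17:36869362-36869573 (plus strand) for Trim10, chr9:21963577-21963788 (minus strand) for Epor, chr16:58669996-58670207 (plus strand) for Cpox, chr4:115056214-115056425 (plus strand) for Tal1 and chr4:134864324-134864535 (plus strand) for Rhd. Tmcc2 and Trim10 fell in CMV-siRE spleens, and Epor, Cpox, Tal1 and Rhd did not pass. Trim58, which also fell, has none of the 3 kinds of capitalised word in its window. Bpgm and Tspo2, which fell too, have KLF words but no GATA word. Most members with a GATA word did not pass, and a link between the words and the falls was not tested.

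Other red cell genes were counted by lists. Of all 16015 genes tested in spleen, 462 were called lower and 277 higher under CMV-siRE. The adult globins and Alas2, the haem enzyme of red cells, fell in CMV-siRE spleens in 5 of 5, by -2.86 to -2.27 on the log2 scale, and the globins' share of the column total was 0.558% to 1.48% against 4.19% to 5.65% in control spleens and 2.48% to 4.69% in CMV-GE11-siRE spleens. Hba-a1 and Hba-a2 are near copies, so their separate values are uncertain. Of 12 other membrane genes, 2 fell, Dmtn (-1.51 ± 0.33, adjusted p = 0.0194) and Epb41 (-1.14 ± 0.16, adjusted p = 0.00198), both of which tie actin to the spectrin lattice, and 11 of 12 were below 0. Of 12 other enzymes and maturation genes, 6 fell and 0 rose, with a list median of -0.79. Ube2l6 and Ube2o, ubiquitin-conjugating enzymes induced in late red cell precursors, led them at -1.92 ± 0.18 (adjusted p = 0.000129) and -1.76 ± 0.20 (adjusted p = 0.000432), followed by Nt5c3 (-1.03) and Isca1 (-0.84). Ube2l6 also responds to interferon.

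Of 12 other transcription factors and cofactors, 2 fell, Zfpm1, the partner of Gata1 (-0.85 ± 0.23, adjusted p = 0.0477), and the corepressor Cbfa2t3 (-0.70 ± 0.14, adjusted p = 0.0132), and the list median was -0.40. Of 10 tested genes of erythropoietin signalling, 2 fell under CMV-siRE and under CMV-GE11-siRE. Bcl2l1, the survival factor that erythropoietin induces, differed by -1.93 ± 0.19 (adjusted p = 0.000129) and -0.98 ± 0.19 (adjusted p = 0.0138). Pim1, a kinase induced by the same pathway and by other cytokines, differed by -0.74 ± 0.11 and -0.50 ± 0.11 (adjusted p = 0.00225 and 0.0231). The 2 comparisons share the control libraries. Over all genes, 462 of 16015 were called lower under CMV-siRE and 556 under CMV-GE11-siRE. In CMV-GE11-siRE spleens Ube2l6 (-0.74 ± 0.18, adjusted p = 0.0349) and Cbfa2t3 (-0.56 ± 0.14, adjusted p = 0.0388) fell as well, which 0 of the 33 members did.

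Of 12 further haem and iron genes, 1 fell and 2 rose under CMV-siRE, against 462 lower and 277 higher of all 16015 genes. Slc25a39, a mitochondrial carrier, fell by 1.05 ± 0.16 on the log2 scale (adjusted p = 0.00237). Slc40a1, the iron exporter ferroportin, and Hmox1, which breaks haem down, are genes of the iron-recycling macrophage and rose by 0.93 ± 0.18 and 0.73 ± 0.18 (adjusted p = 0.0122 and 0.0316). Slc40a1 also rose under CMV-GE11-siRE (0.78 ± 0.18, adjusted p = 0.0305).

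Markers of other spleen cells passed in 1 list of 6 under CMV-siRE. Of 8 red pulp macrophage markers, 4 rose under CMV-siRE, Cd5l (1.27 ± 0.18, adjusted p = 0.00166), Adgre1 (0.75 ± 0.19, 0.0414), Spic (0.74 ± 0.13, 0.00611) and Vcam1 (0.73 ± 0.16, 0.0236), and 4 under CMV-GE11-siRE, Cd163 (1.26), Cd5l (0.68), Vcam1 (0.64) and Spic (0.50). Of all 16015 genes, 277 were called higher under CMV-siRE and 367 under CMV-GE11-siRE. The summed level of the macrophage markers was 15941 to 27827 in control, 28405 to 31924 in CMV-siRE and 23950.4 to 30467 in CMV-GE11-siRE spleens. None of 8 proliferation markers passed under CMV-siRE, although all 8 lay below 0 with a median of -0.33 and 3 had an unadjusted p under 0.05. The summed level of these markers was 25832 to 41029 in control and 21577 to 27547 in CMV-siRE spleens. Under CMV-siRE, 3345 of all 16015 genes had an unadjusted p under 0.05. For megakaryocytes, which share Gata1, Tal1 and Nfe2 with the red lineage, 0 of 10 markers passed, 0 had an unadjusted p under 0.05, and the median was -0.07. B cell, T cell and neutrophil markers gave 0 calls of 8 each (1, 1 and 2 at an unadjusted p under 0.05), with medians of 0.19, 0.09 and 0.42. Mitochondrially encoded genes took 1.59% to 1.74% of the column total in control, 2.05% to 2.26% in CMV-siRE and 1.90% to 2.18% in CMV-GE11-siRE spleens. The part of these markers and shares in the members' differences was not tested.

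Liver gave 1 call among 21 tested members. Tfr2, which in hepatocytes senses transferrin iron, measured 11926, 11066, 10723 and 10786 in control livers. CMV-siRE livers gave 8677, 8309, 9193 and 8808, all lower, and Tfr2 fell by 0.35 ± 0.07 on the log2 scale (adjusted p = 0.0208), with 4.04% of all genes called. CMV-GE11-siRE livers gave 8975, 9373, 9954 and 8497, also all below the controls, with a difference of -0.28 ± 0.07 that just missed the threshold (adjusted p = 0.0506), and 0 members passed against 4.23% of all genes, with 2 at an unadjusted p under 0.05. Between these circuits 0 members and 0.0069% of all genes were called, with 0 members at an unadjusted p under 0.05. Of all 14484 genes, 2991 and 1110 reached an unadjusted p under 0.05 in these 2 comparisons. The CMV-siRE call was lost without CMV-scrR replicate 1 or CMV-siRE replicate 2 (adjusted p 0.0197 to 0.0727 over 12 left-out fits), and scaling by the column total or leaving out CMV-GE11-siRE replicate 3 gave the CMV-GE11-siRE comparison 1 call.

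Lung gave 1 call of 27. Bpgm read 912, 1076, 1003 and 966 in control lungs and 585, 746, 524 and 542 in CMV-siRE lungs. The groups did not overlap, and Bpgm fell by 0.73 ± 0.12 on the log2 scale (adjusted p = 0.0102), with 1.41% of all genes called and the call present with any 1 library left out. In CMV-GE11-siRE lungs Bpgm read 838, 770.0, 913 and 976, with 0 members and 0% of genes called against the control (3 members at an unadjusted p under 0.05) and 0 members and 0.0619% of genes against CMV-siRE (5 at an unadjusted p under 0.05). Of all 16165 genes, 1277 and 1612 reached an unadjusted p under 0.05 in those comparisons. The 5 adult globin and Alas2 genes fell with Bpgm in CMV-siRE lungs, by -1.98 to -1.59 on the log2 scale. Fech, named after its values were seen, at 995 to 1307 in control and 815 to 960.0 in CMV-siRE lungs, did not overlap or pass (-0.38 ± 0.09, adjusted p = 0.0554). The CMV-siRE count was 2 without CMV-scrR replicate 4 or CMV-siRE replicate 2, and dropping the latter also gave 1 call between CMV-GE11-siRE and CMV-siRE.

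CMV-siRE lung replicate 2 was the highest of the 4 CMV-siRE lungs for 22 of the 33 members, and the highest of all 12 lungs for 12. Car1 read 0.971, 76.9, 3.73 and 5.11 in the 4 CMV-siRE lungs, Klf1 7.89, 34.6, 3.78 and 4.16, Hemgn 1.97, 50.5, 7.57 and 4.16 and Cldn13 0, 26.7, 6.65 and 0. In each the same library was the high one, while no control lung was above 8.58 for Klf1 or 3.75 for Car1. Hemgn also reached 31.5 in control lung replicate 4. These genes were picked after their values were seen. Of the 4 thymus markers, Rag1, the recombinase of developing lymphocytes, read 1376, 153, 26.6 and 116 in control, 3.94, 502, 4.71 and 3.11 in CMV-siRE and 290.4, 0.999, 5.93 and 3.07 in CMV-GE11-siRE lungs. Dntt, which adds bases to receptor gene joints, read 526, 53.3, 17.1 and 74.2 in control, 3.94, 243, 3.69 and 7.11 in CMV-siRE and 114, 0, 2.81 and 2.93 in CMV-GE11-siRE lungs. Both were highest in control replicate 1, next in CMV-siRE replicate 2 and then in CMV-GE11-siRE replicate 1. In the same order of circuits, Ptcra stood at 1.05 to 26.1, 0 to 5.94 and 0 to 5.82, and Cd8a, also on mature T cells, at 474 to 893, 289 to 739 and 290.1 to 1153. The part of these genes in the lung results was not tested. Leaving out 1 library at a time could not test it, as Rag1 was high in several libraries.

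Kidney and thymus gave no call. In kidney, 0 of 25 tested members passed in limma in any comparison, as did 0% of all genes in each of the 3. In this organ 3, 1 and 1 members had an unadjusted p under 0.05, as did 1486, 1218 and 599 of all 15105 genes. Its most abundant members were Car2 (8816 to 10002 in control, 4548 to 8336 in CMV-siRE and 4960.1 to 7949 in CMV-GE11-siRE libraries), Fech and Slc4a1. For Car2 the control libraries were above all others (log2 differences -0.59 ± 0.21 and -0.47 ± 0.21, adjusted p = 0.452 and 0.52). Slc4a1 spanned 1827 to 2251 in control and 704 to 2124 in CMV-siRE kidneys, overlapping, and Fech differed by 0.16 ± 0.14 (adjusted p = 0.688). In thymus 0 of 28 members passed, with 0.00609% of genes called under CMV-siRE against the control and 0% in the other comparisons. In this organ 2, 2 and 1 members had an unadjusted p under 0.05, as did 927, 1550 and 461 of all 16421 genes. Slc25a37, Xpo7 and Tfrc, the most abundant there, differed by -0.14 ± 0.18, -0.25 ± 0.16 and -0.55 ± 0.40 under CMV-siRE (adjusted p = 0.768, 0.699 and 0.699). Without the library that stood apart, kidney stayed at 0 members, with 37 genes called under CMV-siRE. Thymus then had 1 member and 1782 genes called under CMV-siRE. A fit of just the 8 libraries of that comparison called 0 members and 1116 genes (7.57%) in kidney, and 1 member and 1693 genes in thymus.

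In tumour 20 members were tested, and 4 were higher and 4 lower in CMV-GE11-siRE than in control tumours. Of all 14044 genes, 41.9% were called, 3107 higher and 2783 lower, so the members' share was near that of all genes. Tfrc gave 177, 180.0, 383 and 180.3 in control and 723, 937, 728 and 711 in CMV-GE11-siRE tumours, with no overlap (1.82 ± 0.31, adjusted p = 0.000885). Ppox gave 151, 66.7, 71.4 and 98.5 and 387, 408, 451 and 465 (2.21 ± 0.44, adjusted p = 0.00196), and Slc25a37 305, 161, 173 and 340.2 and 814, 1128, 949 and 732 (1.94 ± 0.43, adjusted p = 0.00335). Uros was higher by 0.79 ± 0.27 (adjusted p = 0.0319). Of the 7 haem and mitochondrial iron members, Fech was lower in the same comparison.

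**Figure D5:**
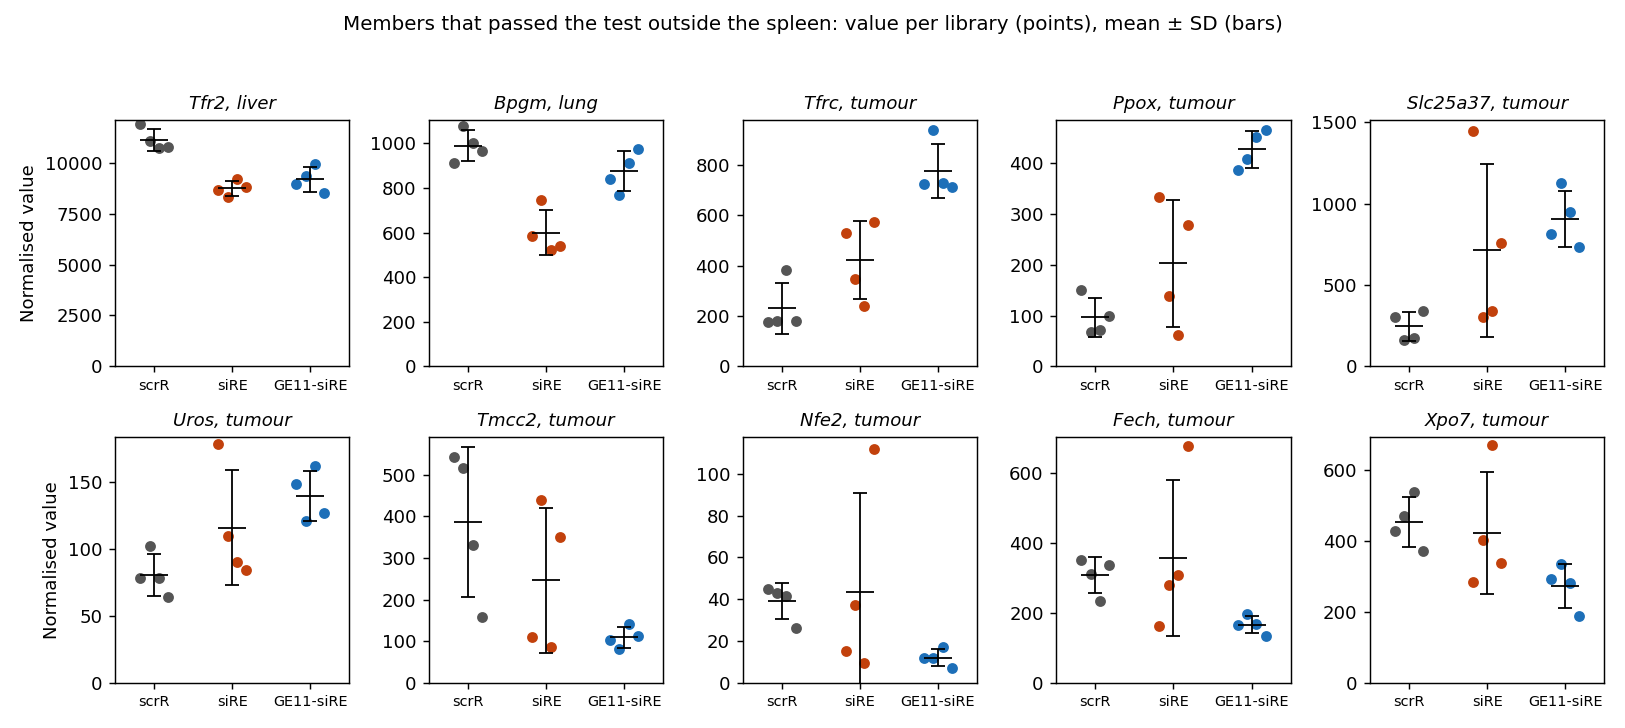
Normalised value (vertical axis, from 0) per library for the members that passed in liver, lung or tumour; points are libraries, bars mean ± SD. Tfr2 in liver and Bpgm in lung lie lower under CMV-siRE; in tumour Tfrc, Ppox, Slc25a37 and Uros lie higher and Tmcc2, Nfe2, Fech and Xpo7 lower under CMV-GE11-siRE on the deposited scale, and the last 4 stand above 0 when columns are scaled to a common total, which moves all genes up.

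The lower members in tumour were Tmcc2, Nfe2, Fech and Xpo7. Tmcc2 (-1.68 ± 0.51, adjusted p = 0.0177), Nfe2 (-1.65 ± 0.62, 0.0457), Fech (-0.88 ± 0.34, 0.0488) and Xpo7 (-0.74 ± 0.27, 0.0395) were lower on the deposited scale, and with columns scaled to a common total they stood at 0.40, 0.34, 1.20 and 1.35. With globin and mitochondrially encoded genes left out of that total they stood at -0.93, -0.94, -0.13 and 0.015. The full total moved the median of all genes from 0.05 to 2.13 and gave 15 members higher and 0 lower, and the narrower total, which moved it to 0.81, gave 9 higher and 0 lower. Relative to the median of all genes, Tmcc2, Nfe2, Fech and Xpo7 stood at -1.74, -1.70, -0.94 and -0.80 on the deposited scale and at -1.73, -1.79, -0.93 and -0.79 with the full total, so the sign change is the shift common to all genes. Mitochondrially encoded genes took 63.1% to 71.4% of the column total in control, 45.0% to 73.1% in CMV-siRE and 8.04% to 37.9% in CMV-GE11-siRE tumours. Leaving out 1 library gave 3 to 9 calls, with 3 to 5 when the one left out was control replicate 1 or 2, or when it was replicate 1, 3 or 4 of the CMV-GE11-siRE tumours. Tfrc, Ppox and Slc25a37 passed in all 12 of these fits, Tmcc2 in 10, Uros in 7, Xpo7 in 6 and Nfe2 and Fech in 3 each. Against the control, 0 members and 0.256% of genes were called in CMV-siRE tumours (4 members at an unadjusted p under 0.05, and 1 or 2 called without CMV-siRE replicate 2 or 3), and 0 members and 0.0214% of genes between CMV-GE11-siRE and CMV-siRE (5 at an unadjusted p under 0.05, and 5 called without CMV-siRE replicate 1). Of all 14044 genes, 3004 and 3677 reached an unadjusted p under 0.05 in these comparisons. CMV-siRE tumour replicate 4 was the one CMV-siRE tumour where Slc4a1 and Trim10, named after their values were seen, were high. Over the 4 libraries Slc4a1 read 0.807, 5.61, 0 and 414 and Trim10 read 0.807, 3.37, 0 and 99.2. The globins' share of the column total in these libraries was 0.0130%, 0.150%, 0.00283% and 1.25%, so it was also highest in replicate 4.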

How the data were processed

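RNA of 72 libraries (TRIzol extraction, TruSeq libraries, per the labels' protocols) was read from 1 table per tissue. The deposited values are a signal per gene, fractional and never negative, with DESeq2 named in the submitters' processing notes. For the aligner, counter, strand setting, genome build and annotation, the labels and notes used here give no entry. Of the 36047 mouse identifiers, 35968 had a GENCODE M21 name. Depending on the library, 50.3% to 72.6% of low values fell on a multiple of the smallest step (within 0.1 of a step, up to 20 steps), so reads were not recovered and count models were not run. Precision is therefore given by the spread between libraries.

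Genes reaching 10 in 4 or more of a tissue's 12 libraries were tested on log2(value + 1) with limma 3.58.1 (trend, two-sided, R 4.3.3), 1 mean per circuit, with Benjamini-Hochberg adjustment over all genes tested in the tissue and calls at an adjusted p under 0.05. Log2 differences are on that scale and understate changes of low genes. The procedure was tested on simulated data. Alternatives were a pseudocount of 0.1, no filter, a fit of just the 8 libraries of both circuits, a replicate block, 2 scalings to a common column total and leaving out each library.

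Members, gene lists and tests were chosen with earlier results of these data known. Named genes were every member in spleen, members that passed elsewhere or the 3 most abundant, and up to 4 passing genes of each other list with the largest differences. Genes named outside that rule are said to be so in the text. Figures used Python 3.11.15 and matplotlib 3.10.9.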

Additional observations from a re-analysis of the deposited data

Results flagged for a closer look

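Over 168 groups of 4 libraries examined, 11 had a library far from the other 3 by Dixon's 95% criterion. The 168 groups included lung and tumour genes picked after their values were seen, so the count cannot be set against a chance rate. In lung, CMV-siRE replicate 2 stood high for Klf1 (34.6, the others 3.78 to 7.89), Car1 (76.9, the others 0.971 to 5.11) and Hemgn (50.5, the others 1.97 to 7.57). Control lung replicate 4 had Car1 at 3.75 where the others were listed at 0, and CMV-GE11-siRE lung replicate 3 had Hemgn at 22.7 (the others 2.06 to 5.01). In tumour, CMV-siRE replicate 4 stood high for Slc4a1 (414, the others 0 to 5.61) and Trim10 (99.2, the others 0 to 3.37). Tfrc was high in control tumour replicate 3 (383, the others 177 to 180.3) and in CMV-GE11-siRE tumour replicate 2 (937, the others 711 to 728). The mean log2 level of the members was high in control kidney replicate 2 (6.70, the others 5.92 to 6.04) and in CMV-siRE thymus replicate 2 (6.04, the others 5.78 to 5.79).

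Under CMV-siRE against CMV-scrR, Alad had a log2 difference of -0.59 in spleen and 1.25 in tumour. Car2 had -0.79 in spleen and -0.59 in kidney but 0.26 in lung. Each of these had libraries that did not overlap between the circuits. In this comparison such separation, in either direction, held for 7.78% of all genes in tumour and 18.3% in kidney, with spleen and lung between. Separation alone therefore does not set these genes apart. In tumour, column total scaling moved the median of all genes in this comparison to 0.48. The difference between the tissues was not tested.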

How the results depend on the processing

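In spleen the members called under CMV-siRE against CMV-scrR numbered 10, 6 to 20 with 1 library left out (6 when CMV-siRE replicate 3 was dropped, 20 when it was CMV-GE11-siRE replicate 4) and 16 with only the 8 libraries compared, all lower. CMV-GE11-siRE against CMV-siRE gave 2 in spleen and 0 to 3 with 1 library left out. Counts with 1 library left out ran from 0 to 1 in liver for CMV-siRE and for CMV-GE11-siRE against CMV-scrR, from 1 to 2 in lung for CMV-siRE against CMV-scrR, from 0 to 1 in lung for CMV-GE11-siRE against CMV-siRE, and from 0 to 1 in thymus for CMV-siRE against CMV-scrR. In tumour they ran from 0 to 2 for CMV-siRE against CMV-scrR, from 3 to 9 for CMV-GE11-siRE against CMV-scrR and from 0 to 5 for CMV-GE11-siRE against CMV-siRE. Thymus gave 1 for CMV-siRE with only the 8 libraries compared. Both column total scalings gave 1 in liver for CMV-GE11-siRE against CMV-scrR. In tumour, CMV-GE11-siRE against CMV-scrR gave 5 with no filter and 15 under column total scaling, and CMV-GE11-siRE against CMV-siRE gave 10 under that scaling and 2 when globin and mitochondrial genes were left out of the total. Column total scaling reversed Xpo7 (1.35), Fech (1.20), Tmcc2 (0.40) and Nfe2 (0.34) in tumour, and without globin and mitochondrial genes Xpo7 (0.015), where the median of all genes moved to 2.13 and 0.81; below that median all 4 stayed lower. The cause of the other changes was not tested. In spleen column total scaling moved the median of all genes to 0.10 and left the count at 10. Of the other values for single genes, 1875 kept their direction and side of the threshold, 62 lost the call and 20 gained it.

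Libraries with the same replicate number showed no clear pairing. Over 72 such pairs the correlation of deviations ran from -0.28 to 0.27, with 10 over 0.1. By tissue its median ran from -0.070 (spleen) to 0.049 (thymus). For pairs with unlike numbers the median ran from -0.003 (thymus) to 0.032 (tumour). Shared handling of libraries with the same number was not tested. With the replicate block the spleen counts were 11 for CMV-siRE against CMV-scrR and 1 for CMV-GE11-siRE against CMV-siRE.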
